A study of Mus musculus with 8 samples.

Results

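The genes described here are 33 genes of cholesterol and fatty acid synthesis and of their regulation, transport and storage, followed in gonadotropes isolated from the mouse pituitary. They were chosen by gene symbol from a list of the pathway, and all 33 were found among the 55523 entries of the count table. Cells positive for EGFP were sorted from pituitaries of Ad4BP-BAC-EGFP mice, and their RNA was sequenced from 4 female and 4 male samples. Ad4BP is another name of NR5A1, the nuclear receptor that marks gonadotropes within the pituitary, and in this line a transgene on a bacterial artificial chromosome drives EGFP. All samples carry the transgene, and the labels name no other allele or treatment. The age of the mice, and how many glands went into a sample, are not given in the sources used here. Male replicate 1, which the study excluded because its expression pattern differed from those of the other males, is shown apart, and the sexes were compared between male replicates 2 to 4 and female replicates 1 to 4.

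Cholesterol is built from acetyl-CoA by way of mevalonate, the isoprenoids and squalene, and the last sterol precursors are converted to cholesterol on the membrane of the endoplasmic reticulum. When this membrane holds little cholesterol, SCAP escorts the SREBP transcription factors to the Golgi, where they are cut and released to enter the nucleus. When cholesterol is plentiful, INSIG1 and INSIG2 hold SCAP in the endoplasmic reticulum, and the target genes of SREBP, which include most enzymes of the pathway, are transcribed less. Excess cholesterol is esterified for storage by SOAT1 or exported by ABCA1 and ABCG1, whereas NPC1 and NPC2 carry the cholesterol of lipoproteins out of the lysosome. Gonadotropes secrete luteinizing and follicle-stimulating hormone and are not steroid-producing cells, although NR5A1 is best known as a regulator of steroidogenesis.

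The upstream sequences of 3 members are given first because they belong to the synthase near the entry of the pathway, which holds the only short sterol element found in the windows of the 33 genes, and to the pair of INSIG genes that retain SCAP. They are read from RefSeq on GRCm38.p6, in the direction of transcription, and end before the annotated gene start. They span chr13:119690101-119690350 on the plus strand for *Hmgcs1*, chr5:28071162-28071362 on the plus strand for *Insig1* and chr1:121332590-121332839 on the minus strand for the most upstream start of *Insig2*. Capitals mark the matches to the motifs searched, on either strand.
Hmgcs1: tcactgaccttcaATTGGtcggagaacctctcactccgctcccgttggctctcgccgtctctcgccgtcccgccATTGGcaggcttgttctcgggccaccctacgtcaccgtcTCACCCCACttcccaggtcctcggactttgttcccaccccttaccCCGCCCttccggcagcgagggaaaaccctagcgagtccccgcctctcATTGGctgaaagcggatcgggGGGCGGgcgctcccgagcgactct
Insig1: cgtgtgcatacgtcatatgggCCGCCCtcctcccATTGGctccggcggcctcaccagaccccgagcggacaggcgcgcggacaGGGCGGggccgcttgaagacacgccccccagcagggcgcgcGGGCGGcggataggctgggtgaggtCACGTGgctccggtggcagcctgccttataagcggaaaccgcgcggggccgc
Insig2: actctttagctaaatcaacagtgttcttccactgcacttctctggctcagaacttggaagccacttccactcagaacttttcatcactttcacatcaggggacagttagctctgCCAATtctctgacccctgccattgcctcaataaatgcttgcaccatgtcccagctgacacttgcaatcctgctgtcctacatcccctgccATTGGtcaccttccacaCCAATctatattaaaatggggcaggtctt
Hmgcs1 has the match TCACCCCAC to the short form of the sterol regulatory element, TCACNCCAC, 137 to 129 bases before the gene start. Its other capitals are CCAAT boxes, bound by NF-Y, and GGGCGG boxes, bound by Sp1. *Insig1* carries an E-box, CACGTG, 101 to 96 bases before its RefSeq start, and the stretch printed stops earlier, at the more upstream gene start of GENCODE. The *Insig2* stretch holds matches to CCAAT alone among the motifs searched. *Insig2* has other annotated starts inside the gene, and counts per gene do not tell which start was used.

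RefSeq gave upstream windows for 25 of the 33 members, each from 250 bases before to 50 bases after a gene start, and a gene with several starts was counted once. CCAAT was found in 21 of the 25 (84%), compared with 41.1% of the 27025 genes with such a window. GGGCGG was found in 22 (88%), against 38.2% of all genes. CACGTG was found in 6 (24%), against 8.09%, and these were *Abca1*, *Dhcr7*, *Hsd17b7*, *Insig1*, *Sc5d* and *Scap*. The short sterol element occurred in *Hmgcs1* alone among the 25 (4%) and in 1.44% of all genes, and its longer form, with an A before these letters, occurred in none of the 25 and in 0.270% of all genes. CAAGGTCA, the site of NR5A1 and related receptors, was found upstream of *Dhcr7* alone (4%, against 1.76%). The direct repeat bound by LXR, AGGTCA and again AGGTCA with 4 bases between them, was found in none of the 25 and in 0.0148% of all genes. Both strands were searched for each motif. The long sterol element contains the short one, and AGGTCA is part of both the NR5A1 site and the LXR repeat. A match is a description of these letters, and its absence says only that they are not in this window.

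Total counts ran from 18774578 to 31302588 per sample, and levels are given as CPM, the usual unit of counts scaled to a common library size, with the TMM factors of edgeR (trimmed mean of M values) over the 8 samples. The smallest level considered, 3 counts, was between 0.0958 and 0.160 CPM and covers counting error only. The 33 genes had between 1 and 29153 counts per sample, and 32 of them had at least 10 counts in every sample. *Nr5a1* ran from 862 to 1266 CPM in females and from 584 to 801 CPM in the 3 compared males, and male replicate 1 had 16.3 CPM. The summed level of 5 gonadotrope markers (*Lhb*, *Fshb*, *Cga*, *Gnrhr* and *Nr5a1*) was between 21488 and 34863 CPM in females and between 67929.6 and 75717 CPM in males, and none of them was at 0 in any sample. Markers of other endocrine cells were present too. The 9 listed, from *Gh* and *Prl* to *Pomc* and *Tshb*, summed to between 36435 and 98149 CPM in females and between 93817 and 186885 CPM in males, with 7 of the 9 higher on average in males and 3 without overlap. The 5 markers of stem and folliculostellate cells summed to between 341 and 592 CPM in females and between 235 and 297 CPM in males. None of these 14 markers was at 0 in any sample. The gonadotrope and the stem cell sums did not overlap between the sexes, although of the 5 gonadotrope markers 1 (*Fshb*) had all males above and 1 (*Nr5a1*) all females above, and *Cga*, *Lhb* and *Gnrhr* overlapped. The sum of other endocrine markers overlapped, with female replicate 2 above male replicates 2 and 3. The part of these sums in any difference below was not tested. In bulk samples, fewer cells of a type and less RNA per cell cannot be told apart.

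The 33 genes spanned a wide range of levels in every sample, and *Npc2* and *Abcg1* led them in both sexes when compared per length, in CPM per kilobase of the principal transcript. The other transport and storage genes lay lower, and the median of these 6 genes was 10.6 in females and 14.2 in males, beside 11.3 and 14.6 for the 7 genes of the early pathway. *Npc2*, which binds cholesterol in the lysosome, had the highest level in both sexes, at 118 ± 33.2 CPM per kilobase in females (SD, n = 4) and 183 ± 6.02 in males (SD, n = 3). *Abcg1*, a cholesterol exporter, was next at 115 ± 30.0 in females and 95.5 ± 20.6 in males. The order of these top genes held in both sexes, but their female values lay within 1 SD of each other. *Pmvk* and *Insig2* took the next places, although the place of *Pmvk* in males rests on male replicate 3, without which its mean was 21.4 CPM instead of 42.1 CPM. *Insig2* was at 41.7 ± 7.08 CPM per kilobase in females and 67.5 ± 5.997 in males. Of the synthesis enzymes, *Hmgcs1*, *Msmo1* and *Ebp* lay between 19.8 and 30.8 CPM per kilobase in the mean of either sex. At the low end, *Scd2*, *Hsd17b7*, *Acaca* and *Scd1* had group means between 0.323 and 3.53. *Tm7sf2* in males (3.17) and *Lss* in females (3.34) lay within that range too. The transcript used for the length is approximate, because the table counts assembled loci.

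**Figure D1:**
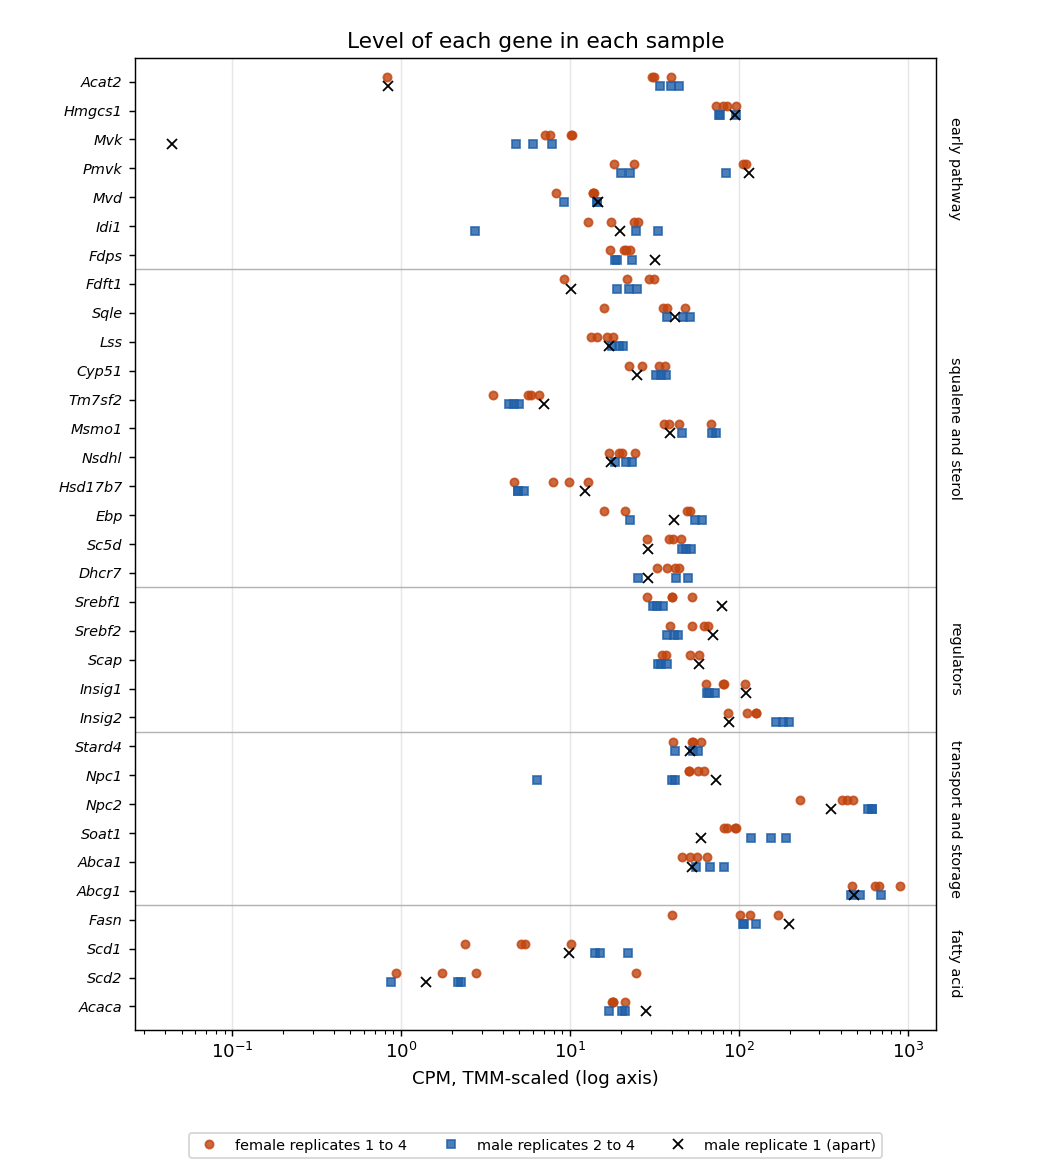
CPM (TMM-scaled, log axis) of each of the 33 genes in each sample, with 4 female samples, 3 male samples and male replicate 1 as separate symbols and the genes grouped by role. Females and males interleave for 27 genes. *Sc5d*, *Insig2*, *Soat1*, *Npc2* and *Scd1* are higher in the 3 males than in any female, and *Npc1* is lower in the 3 males than in any female. *Mvk* in male replicate 1 lies far below every other value of that gene.

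To ask whether gonadotropes of the sexes differed in this pathway, each gene was tested with edgeR's quasi-likelihood test across all 20152 genes that passed the filter on low counts. All 33 genes passed it. None of them was past the threshold (Benjamini-Hochberg adjusted p under 0.05), and 471 genes of the table were, which is 2.34%. That count moved with the settings, to between 88 and 171 when any 1 sample was left out, to 0 with a replicate block and to 2329 with DESeq2. The lowest adjusted p of the 33 was 0.0734, for *Soat1*. At an unadjusted p under 0.05, 5 of the 33 genes (15.2%) passed in the same edgeR test, *Hsd17b7*, *Insig2*, *Npc2*, *Soat1* and *Scd1*, against 19.9% of all genes tested. DESeq2 gave an adjusted p for 32 of the 33 genes, all but *Scd2*, and called 3 of these (9.38%), *Insig2*, *Soat1* and *Scd1*, against 11.7% of all genes with an adjusted p. Fold changes (males over females, log2) were positive for 16 genes and negative for 17, with a median of -0.02, while the median of all genes tested was -0.03. Their median size was 0.32, against 0.41 for all genes. The counts thus lay at or below the background of the table. The labels do not say that the samples of a sex came from separate animals, so p-values measure the spread between these samples only.

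The groups did not overlap for 6 of the 33 genes. All 3 males were above all 4 females for 5 genes (15.2%), *Sc5d*, *Insig2*, *Npc2*, *Soat1* and *Scd1*, and 11.5% of all genes tested had this order. The reverse order held for *Npc1* alone (3.03%), against 10.8% of all genes. For the other 27 genes the values of the sexes overlapped. The precision differed widely between genes. In 17 of them the 95% interval of the log2 fold change lay within 1 of 0, so that a larger than 1 log2 difference was outside the interval, and the narrowest belonged to *Acaca* (-0.33 to 0.39) and *Hmgcs1* (-0.40 to 0.32). The widest belonged to *Scd2* (-4.95 to 0.71), and those of *Acat2*, *Pmvk* and *Idi1* spanned several units.

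**Figure D2:**
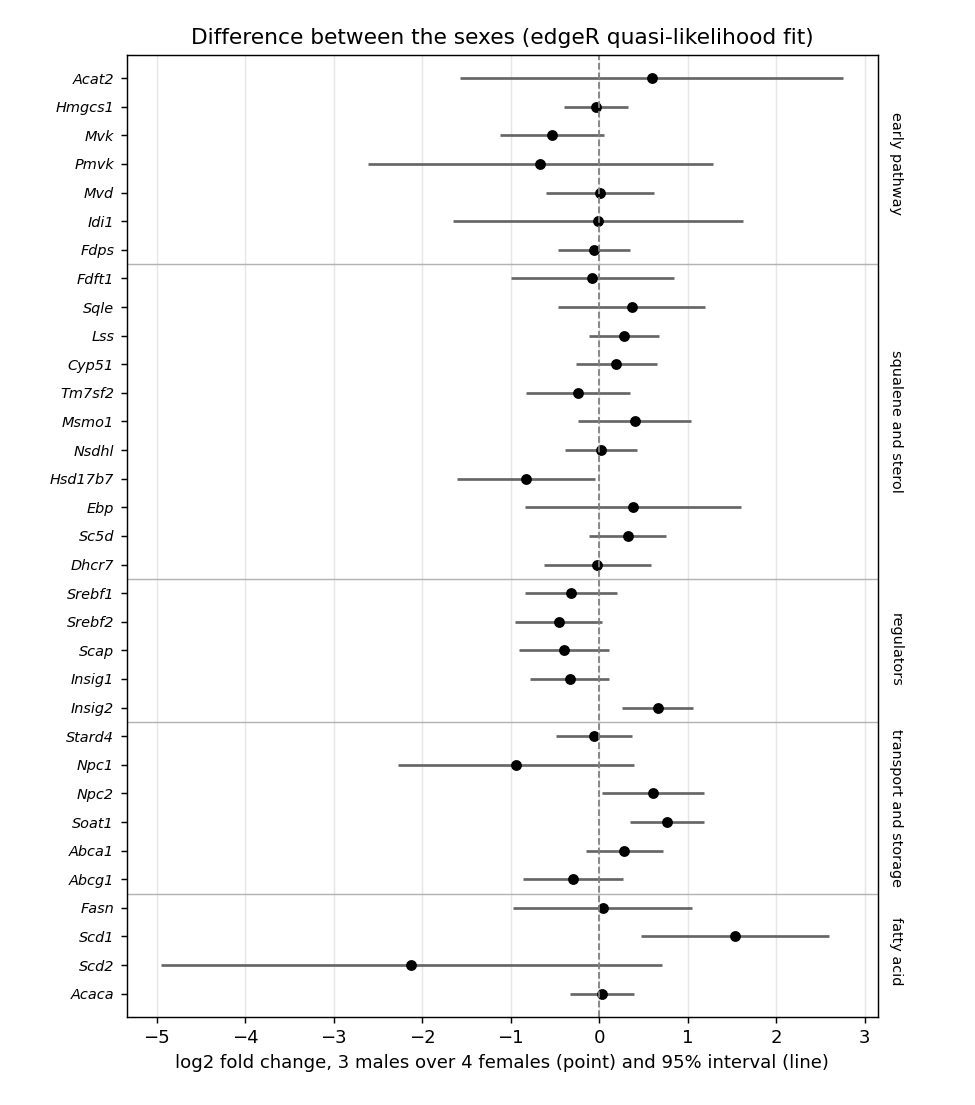
Log2 fold change of males (replicates 2 to 4) over females (replicates 1 to 4) for each gene, as a point with its 95% interval from the edgeR quasi-likelihood fit. The intervals of *Insig2*, *Soat1*, *Scd1* and *Npc2* lie above 0 and that of *Hsd17b7* below 0, and no gene passed the adjusted threshold.

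Of the 7 genes of the early pathway, from acetyl-CoA to farnesyl diphosphate, none passed either threshold of the edgeR test, and the sexes overlapped in all 7. *Hmgcs1* encodes the cytosolic synthase that makes HMG-CoA. It was at 96.2, 80.2, 85.4 and 72.8 CPM in female replicates 1 to 4, at 95.9, 75.9 and 77.7 CPM in the 3 compared males (replicates 2 to 4, in this order throughout), and at 94.9 CPM in male replicate 1. These 8 values were among the steadiest of the pathway, with the highest sample 1.32 times the lowest, and the sexes interleaved. The log2 fold change was -0.04 (SE 0.15), with an adjusted p of 0.925 in the edgeR test, and its sign turned with some alternatives.

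*Pmvk*, which encodes phosphomevalonate kinase, overlapped between the sexes but fell into separate levels within each. Its values were 18.2, 110.8, 23.9 and 105.7 CPM in female replicates 1 to 4, 20.1, 83.5 and 22.8 CPM in the compared males, and 115 CPM in male replicate 1. Female replicates 2 and 4 and male replicates 1 and 3 were thus the high samples, all at 83.5 CPM or more, and the other 4 samples were at 23.9 CPM or less. All these values rest on at least 425 counts.

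*Acat2*, the cytosolic thiolase that starts the pathway, was at 30.5, 0.8293, 39.4 and 31.4 CPM in the females, at 43.9, 39.5 and 34.0 CPM in the males and at 0.8295 CPM in male replicate 1. It was nearly absent in female replicate 2 and male replicate 1, with 17 and 19 counts, and all the other samples had at least 713. *Acat3*, a paralogue that shares 39.1% of the 50-base stretches of *Acat2*, was between 0.0865 and 2.01 CPM in the 8 samples. Reads of the shared stretches could have been assigned to either gene or to neither.

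*Mvk*, mevalonate kinase, was at 7.06, 10.2, 7.58 and 10.3 CPM in the females and at 6.03, 7.78 and 4.81 CPM in the males, with a single count in male replicate 1. The sexes overlapped, and the log2 fold change was -0.54 (SE 0.25, adjusted p = 0.291 in the edgeR test). *Acat2* and *Mvk* were the 2 genes, of the 32 with a median of at least 100 counts, in which some sample lay below 10% of the median CPM. Of the 13000 genes of the table with such a median, 7.51% had such a sample.

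*Idi1*, the isomerase of isopentenyl diphosphate, was at 23.8, 12.8, 25.2 and 17.4 CPM in females, at 24.5, 33.0 and 2.72 CPM in males and at 19.8 CPM in male replicate 1. Male replicate 4 was the low sample, with 60 counts, and male replicate 3 was the highest of all. The log2 fold change was -0.02 (SE 0.70) and became 0.50 without male replicate 4. The remaining genes of this stretch were steadier. *Mvd*, the decarboxylase of mevalonate diphosphate, ranged from 8.29 to 14.7 CPM and *Fdps*, farnesyl diphosphate synthase, from 17.2 to 31.9 CPM over the 8 samples, and the highest value of each was in male replicate 1. The locus of *Fdps* also holds *Rusc1* and *Gm43738*, which the table counts separately, and 26.7% of its exon length is shared with *Gm43738*, which had at most 66 counts in any sample.

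Of the 11 genes from squalene to cholesterol, 7 had positive and 4 negative log2 fold changes, with a median of 0.19, and 1 had an unadjusted p under 0.05. That gene was *Hsd17b7*, a reductase of sterol ketones that can also reduce estrone to estradiol. It was at 12.7, 7.95, 9.82 and 4.63 CPM in female replicates 1 to 4, at 4.89, 5.32 and 4.90 CPM in the compared males and at 12.3 CPM in male replicate 1. The 3 males were close together, and 3 females lay above them with female replicate 4 below. The log2 fold change was -0.83 (SE 0.33, 95% interval -1.61 to -0.05), with an adjusted p of 0.228 in the edgeR test. Male replicate 1 lay within the female range.

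*Sc5d*, the sterol desaturase that acts near the end of the pathway, was at 45.5, 40.7, 38.3 and 28.5 CPM in females, at 48.3, 52.3 and 45.8 CPM in males and at 28.9 CPM in male replicate 1. The 3 males were above the 4 females by a narrow margin, and the log2 fold change was 0.32 (SE 0.18, adjusted p = 0.402 in the edgeR test). *Ebp*, the sterol isomerase, had separate levels in both sexes, as *Pmvk* did, and the samples were the same only in part. It was at 15.95, 49.3, 51.5 and 21.1 CPM in females, at 22.7, 60.5 and 54.6 CPM in males and at 41.3 CPM in male replicate 1. Female replicates 1 and 4 and male replicate 2 were low, and the other 5 samples were at 41.3 CPM or more.

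*Sqle*, squalene epoxidase, was at 15.8, 35.8, 47.9 and 37.6 CPM in females and at 37.5, 51.2 and 46.6 CPM in males, so that female replicate 1 alone stood low and the other values overlapped. *Fdft1*, squalene synthase, was at 31.3, 21.6, 29.2 and 9.25 CPM in females and at 18.9, 24.9 and 22.3 CPM in males, with male replicate 1 at 10.1 CPM beside female replicate 4. Its exons overlap *Ctsb* on the other strand over 774 bases, which are 18.3% of its exon length, and *Ctsb* had between 20638 and 48392 counts per sample. The methods name featureCounts at default settings, which do not use the strand, but do not mention the assembly from which the loci are named. If the strand was not used, reads of the overlap cannot be told apart.

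*Msmo1*, the methylsterol oxidase, ranged from 35.9 to 68.4 CPM in females and from 46.3 to 73.3 CPM in males, with female replicate 1 near the higher males. *Lss*, which closes the sterol rings, ranged from 13.3 to 18.0 and from 17.7 to 20.5 CPM, with a log2 fold change of 0.28 (95% interval -0.12 to 0.67). *Cyp51*, the lanosterol demethylase, ranged from 22.5 to 36.3 and from 32.3 to 37.0 CPM. *Nsdhl*, a dehydrogenase of the demethylation steps, and *Dhcr7*, which forms cholesterol from its immediate precursor, had log2 fold changes of 0.02 (95% interval -0.39 to 0.43) and -0.02 (-0.62 to 0.58). *Tm7sf2*, a sterol reductase, was low throughout, between 3.502 and 7.03 CPM, and its locus also holds *Vps51*, *Zfpl1* and *Gm28374*.

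Over the 18 synthesis genes of both stretches, the samples did not order strictly by sex. Female replicates 1 to 4 were the lowest of the 7 compared samples in 3, 4, 1 and 7 genes, and male replicates 2 to 4 in 1, 0 and 2. Female replicates 1 to 4 were the highest in 4, 1, 1 and 1 genes, and male replicates 2 to 4 in 2, 6 and 3. The lowest sample was thus more often a female and the highest more often a male, which was not tested. The mean log2(CPM + 1) of the 11 squalene and sterol genes was 4.53 ± 0.21 in females (SD, n = 4) and 4.67 ± 0.15 in males (SD, n = 3). For the 7 early genes it was 4.54 ± 0.28 and 4.53 ± 0.39. These means are descriptions, and neither difference exceeded the SD of the samples.

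**Figure D3:**
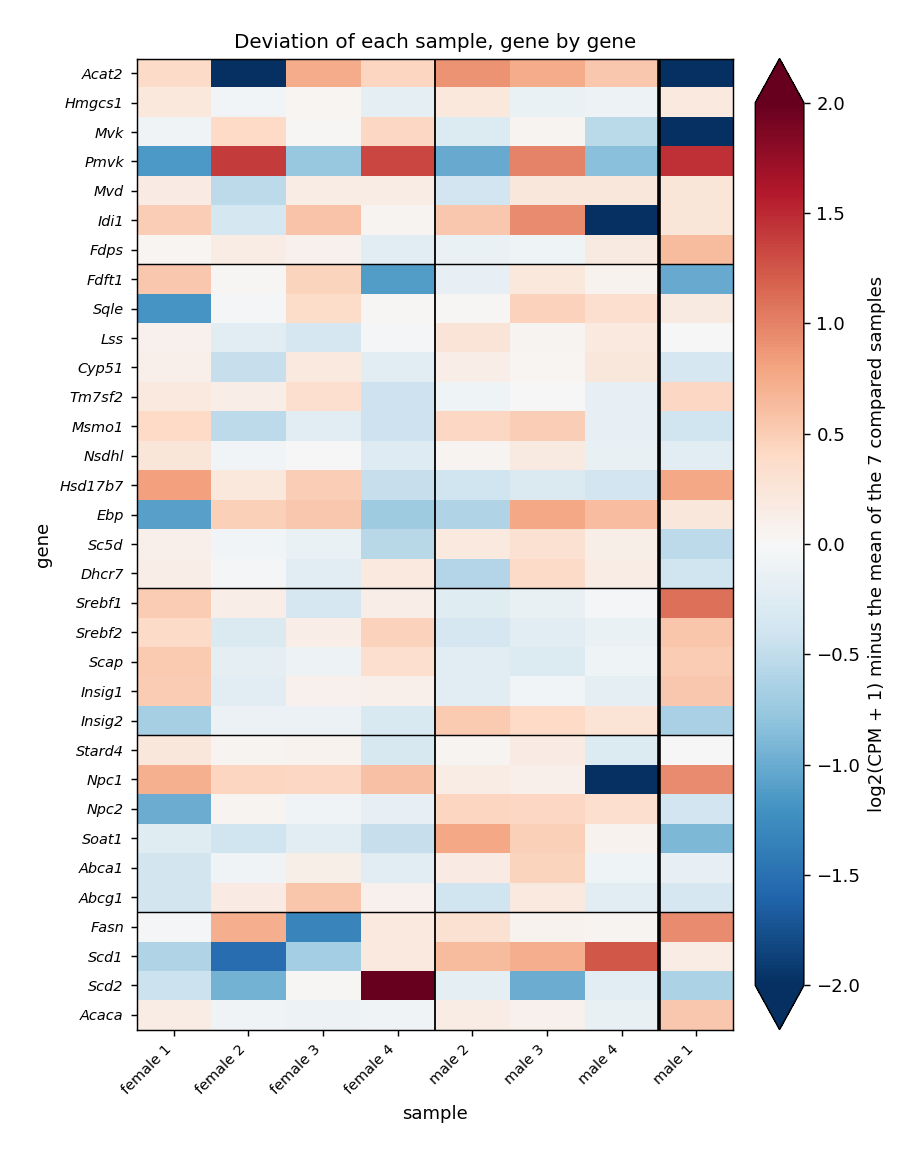
Deviation of each sample from the mean of the 7 compared samples, as log2(CPM + 1), for each gene (rows, grouped by role) and each sample (columns), with colours limited to between -2 and 2. *Pmvk* and *Ebp* alternate between high and low samples within both sexes, *Acat2* is low in female replicate 2 and male replicate 1, and *Insig2* and *Soat1* are above the mean in the 3 males and below it in the 4 females.

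None of the 5 regulators passed the adjusted threshold of the edgeR test, and DESeq2 called *Insig2*. *Insig2* had a positive log2 fold change, and its 3 males were above all the females, while *Srebf1*, *Srebf2*, *Scap* and *Insig1* had negative ones and overlapped between the sexes. *Insig2* lies on chromosome 1 (chr1:121304353-121332589, minus strand, GRCm38). It was at 86.0, 126, 127 and 111 CPM in female replicates 1 to 4, at 198, 182 and 166 CPM in the compared males, and at 87.1 CPM in male replicate 1. The lowest compared male was above the highest female, and male replicate 1 was near the lowest female. The males were 1.58-fold higher (95% interval 1.20 to 2.09), which is a log2 fold change of 0.66 (SE 0.17), with an adjusted p of 0.0905 in the edgeR test and 0.0117 with DESeq2. Over 14 alternatives the log2 fold change was between 0.45 and 0.75 and the adjusted p between 0.0117 and 0.617, the highest with male replicate 1 included.

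*Insig1*, itself a target gene of SREBP, was at 108, 64.1, 80.6 and 81.1 CPM in females, at 64.5, 72.6 and 66.3 CPM in males and at 109.7 CPM in male replicate 1. Female replicate 1 and male replicate 1 were the high samples, and female replicate 2 was below all the males. Its log2 fold change was -0.33 (SE 0.19, 95% interval -0.78 to 0.11), with an adjusted p of 0.397 in the edgeR test. The ratio of *Insig2* to *Insig1* CPM, which does not depend on the library size, was 0.793, 1.97, 1.57 and 1.37 in the females and 3.08, 2.503 and 2.504 in the males. It was 0.793 in male replicate 1, the same as in female replicate 1. The ratio was not tested, and it was computed after the values of *Insig2* were known.

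*Srebf1*, which encodes the SREBP best known for fatty acid genes, was at 52.6, 40.1, 28.7 and 40.3 CPM in females and at 31.0, 32.9 and 35.5 CPM in males, and male replicate 1 was the highest of the 8 at 79.4 CPM. *Srebf2*, best known for cholesterol genes, was at 62.4, 38.9, 52.8 and 65.9 CPM in females, at 37.6, 41.2 and 43.7 CPM in males and at 70.4 CPM in male replicate 1. *Scap*, the escort protein, was at 58.0, 35.1, 37.2 and 51.2 CPM in females, at 34.8, 33.2 and 37.6 CPM in males and at 57.7 CPM in male replicate 1. For each of these genes the 3 males were close together and lay within or next to the lower part of the female range. The log2 fold changes were -0.32 (95% interval -0.84 to 0.20), -0.46 (-0.95 to 0.03) and -0.40 (-0.91 to 0.11). Female replicate 1 was the highest of the 7 compared samples in 3 of the 5 regulators, and the lowest in *Insig2*.

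**Figure D4:**
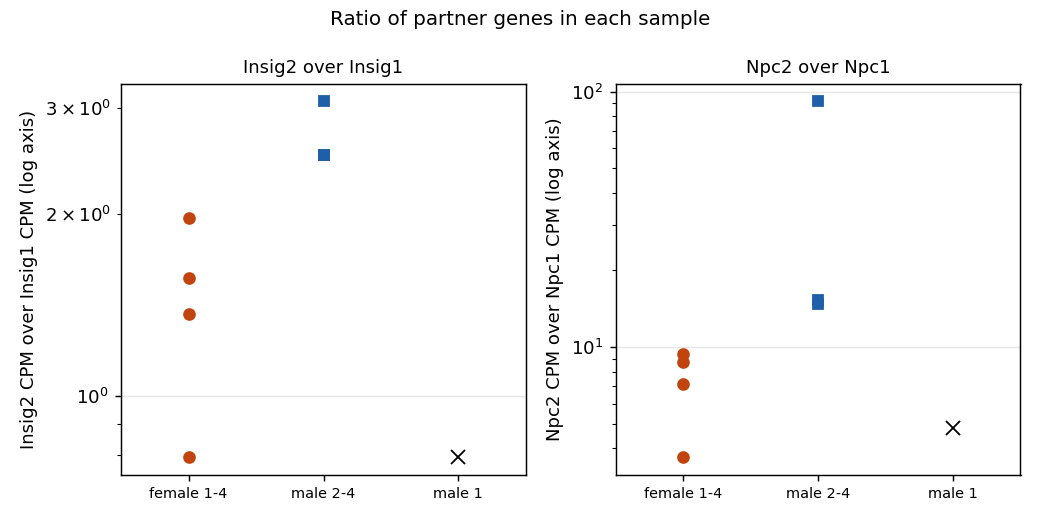
Ratio of *Insig2* to *Insig1* CPM (left) and of *Npc2* to *Npc1* CPM (right), each on a log axis, with 1 point per sample for the 4 females, the 3 compared males and male replicate 1. The 3 males lie above the 4 females in both panels, between 2.503 and 3.08 and between 14.7 and 91.5, and male replicate 1 lies at 0.793 and 4.80, and both ratios were chosen with the values of their genes known and were not tested.

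Of the 6 transport and storage genes, *Soat1* and *Npc2* were higher and *Npc1* lower in the 3 males without overlap, and no call passed the adjusted edgeR threshold. *Soat1*, which esterifies cholesterol for storage in lipid droplets, lies at chr1:156424525-156474331 on the minus strand (GRCm38). Its values were 94.4, 84.8, 96.3 and 81.1 CPM in female replicates 1 to 4, 191, 155 and 118 CPM in the compared males, and 59.3 CPM in male replicate 1. The females lay close together, all compared males were above them, and male replicate 1 was below all 7. The males were 1.70-fold higher (95% interval 1.27 to 2.26), a log2 fold change of 0.76 (SE 0.18), with an adjusted p of 0.0734 in the edgeR test and 0.00442 with DESeq2. Over the 14 alternatives the log2 fold change was between 0.55 and 0.92 and the adjusted p between 0.00442 and 0.640, again highest with male replicate 1 included.

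*Npc2* was at 229, 476, 439 and 410 CPM in the females, at 617, 615 and 582 CPM in the males and at 350.4 CPM in male replicate 1. The 3 males were within a narrow band above all the females, and female replicate 1 was lowest of all. The log2 fold change was 0.60 (SE 0.25, 95% interval 0.03 to 1.18), with an adjusted p of 0.234 in the edgeR test. *Npc1*, the membrane protein to which NPC2 hands its cholesterol, went the other way, at 62.0, 50.9, 50.4 and 57.1 CPM in females, 42.0, 40.3 and 6.36 CPM in males, and 73.0 CPM in male replicate 1. Male replicate 4 was far below the rest, with 140 counts, the other compared males were below every female, and male replicate 1 was the highest of the 8. The log2 fold change was -0.94 (SE 0.57, adjusted p = 0.425 in the edgeR test) and -0.46 without male replicate 4. Exons of *Npc1* overlap those of *Rmc1* on the other strand over 4.51% of its exon length.

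The ratio of *Npc2* to *Npc1* CPM was 3.70, 9.35, 8.72 and 7.18 in the females, 14.7, 15.3 and 91.5 in the males and 4.80 in male replicate 1. The highest value is that of male replicate 4 with its low *Npc1*. This ratio was not tested, and its separation of the sexes follows from the values of both genes, which were known when it was computed. The exporters did not separate the sexes. *Abcg1* was at 468, 677, 895 and 640.5 CPM in females and at 458, 690.4 and 522 CPM in males, with a log2 fold change of -0.30 (95% interval -0.87 to 0.27). *Abca1*, which loads cholesterol onto apolipoprotein A-I, ranged from 45.9 to 64.9 CPM in females and from 55.9 to 81.4 CPM in males (log2 fold change 0.28, 95% interval -0.15 to 0.71). *Stard4*, a soluble sterol carrier, ranged from 40.7 to 60.0 and from 42.0 to 57.0 CPM, and its log2 fold change was -0.06 (-0.49 to 0.37).

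The 4 genes of fatty acid synthesis and desaturation behaved each in its own way. *Scd1*, a stearoyl-CoA desaturase at chr19:44394455-44407879 on the minus strand (GRCm38), was at 5.39, 2.39, 5.09 and 10.2 CPM in female replicates 1 to 4, at 14.03, 15.1 and 21.9 CPM in the compared males and at 9.82 CPM in male replicate 1. All 3 compared males were above the females, and male replicate 1 was just under female replicate 4. This was the largest positive log2 fold change of the 33 genes, at 1.54 (SE 0.45), or 2.90-fold (95% interval 1.39 to 6.05), with an adjusted p of 0.124 in the edgeR test and 0.0226 with DESeq2. Over the 14 alternatives it stayed between 1.30 and 1.98, with adjusted p between 0.0226 and 0.296.

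*Scd2*, a paralogue on the same chromosome, was at 1.75, 0.927, 2.76 and 24.6 CPM in females, at 2.25, 0.868 and 2.18 CPM in males and at 1.40 CPM in male replicate 1. Female replicate 4 was far above the other samples, with 569 counts, against 19 to 90 counts in the other females and 23 to 57 in the males. The log2 fold change of -2.12 (SE 1.20, adjusted p = 0.393 in the edgeR test) became -0.05 without that sample. *Scd1* shares 2.97% of its 50-base stretches with *Scd2* and 3.42% with *Scd3*, so reads of these stretches are uncertain. *Fasn*, fatty acid synthase, was at 101, 170.4, 40.3 and 117 CPM in females, at 126, 107 and 106 CPM in males and at 197 CPM in male replicate 1. The females spread around the 3 males on both sides, and the log2 fold change was 0.04 (95% interval -0.98 to 1.05). *Acaca*, acetyl-CoA carboxylase, was between 17.1 and 21.2 CPM in the 7 compared samples and 28.1 CPM in male replicate 1.

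The spread between samples of a sex was summarised as the coefficient of variation of the CPM. Its median over the 33 genes was 22.1% in females and 13.3% in males, and over the 13000 genes with a median of at least 100 counts it was 20.3% and 16.5%. It ranged from 8.22% (*Soat1*) to 152% (*Scd2*) in females and from 3.28% (*Npc2*) to 85.2% (*Pmvk*) in males. The summed CPM of the 33 genes was between 1981 and 2538 in females, between 2344 and 2813 in males and 2256 in male replicate 1, so that the sexes overlapped in the sum.

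Male replicate 1 departed from the other samples in both directions within the pathway. It was above all the other 7 samples in 10 of the 33 genes (30.3%), *Pmvk*, *Mvd*, *Fdps*, *Tm7sf2*, *Srebf1*, *Srebf2*, *Insig1*, *Npc1*, *Fasn* and *Acaca*, and 20.7% of all genes tested had this sample on top. It was below the other 7 in 2 genes (6.06%), *Mvk* and *Soat1*, against 19.1% of all genes. With library size alone as the scaling, it was above the other 7 in 7 of the 33 genes (21.2%, against 19.3% of all genes) and below in 5 (15.2%, against 18.7%), so both counts lay nearer to the background. Against the other males alone it was above all 3 in 12 genes, below in 13 and inside their range in 8. All of these counts come from 1 sample and have no test.

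Relative to the mean of the other males, *Srebf1* in male replicate 1 was 2.40 times as high, *Srebf2* 1.72 times, *Scap* 1.64 times and *Insig1* 1.62 times. *Insig2* was 0.478 of that mean, so that 4 of the 5 regulators were above the range of the 3 males and *Insig2* was below it. *Fasn* was 1.74 and *Acaca* 1.44 times the mean. *Soat1* was 0.383 and *Npc2* 0.580 of it, while *Npc1* was 2.47 times as high. The genes without overlap between the compared sexes were *Sc5d*, *Insig2*, *Soat1*, *Npc2*, *Npc1* and *Scd1*. In each of them male replicate 1 was on the female side of the other males, and in *Soat1* and *Npc1* it lay beyond every female. These genes were selected for their separation, and the same was not counted over all genes. The sums of markers in this sample were 28423 CPM for gonadotropes and 50646 CPM for the other endocrine cells, both within the female range. The sum for stem and folliculostellate cells, 430 CPM, was within the female range too and above the other males (235 to 297 CPM). *Nr5a1* was at 16.3 CPM in male replicate 1. Its endothelial sum, 689 CPM, was above all the other samples (406 to 557 CPM), and its erythroid sum, 49.9 CPM, was below all of them (81.2 to 580.1 CPM). Their part in these values was not tested.

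**Figure D5:**
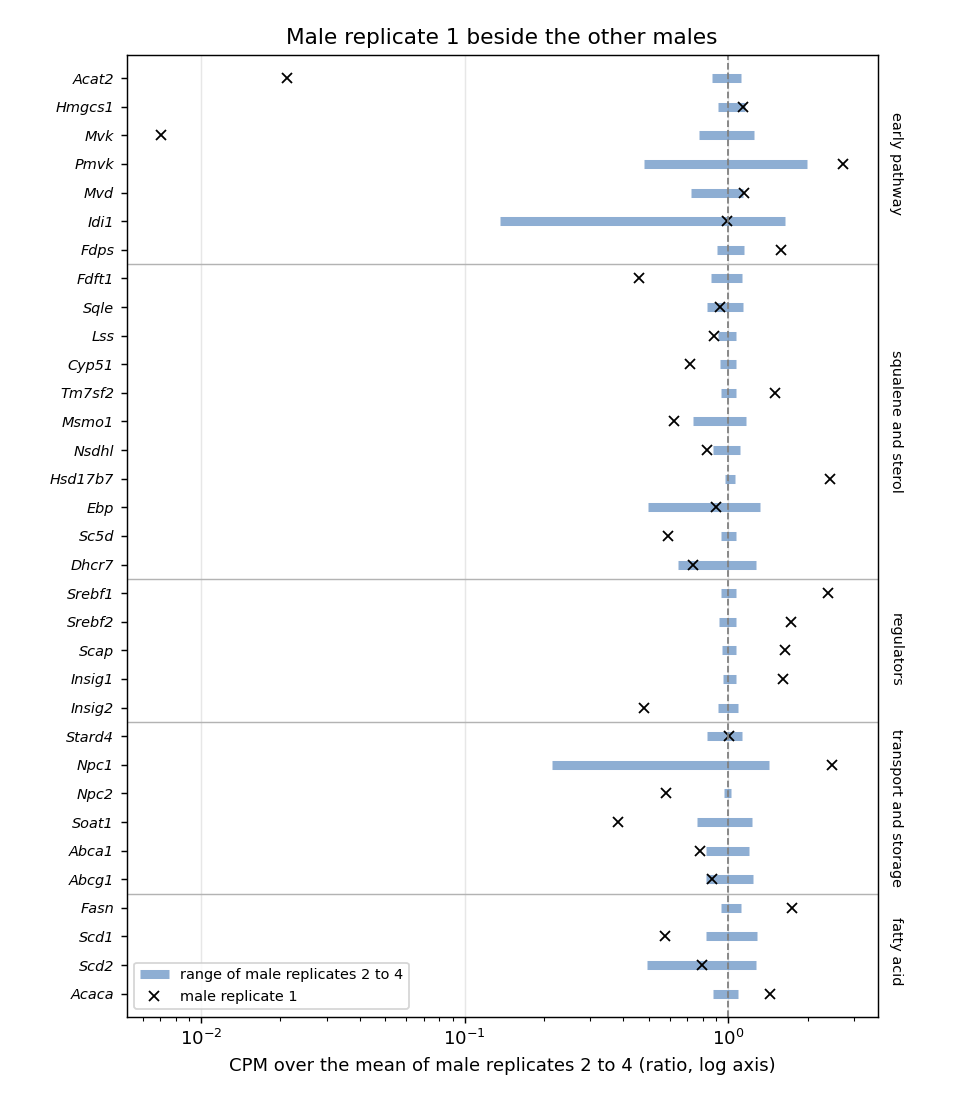
CPM of each gene in male replicate 1 over the mean of male replicates 2 to 4 (cross, ratio on a log axis), with the range of those 3 samples over their own mean as a bar. *Mvk* and *Acat2* are far to the left, and *Pmvk*, *Npc1*, *Hsd17b7* and *Srebf1* are the genes furthest to the right, between 2.40 and 2.73.

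Further genes of the same pathways were taken from a list of 75 enzymes, receptors, regulators and transporters that are not among the 33, of which 71 passed the filter. None was past the adjusted threshold of the edgeR test, in which the lowest adjusted p was 0.0620. At an unadjusted p under 0.05, 23 of the 71 passed (32.4%, against 19.9% of all genes tested), 12 with higher and 11 with lower values in males. DESeq2 called 11 (15.5%, against 11.7% of all genes), 9 with higher and 2 with lower values in males. The median log2 fold change of the list was -0.01. From this list 2 genes are named after their values were seen, because they act beside members described above. *Scd3*, a further desaturase of the *Scd1* family, was between 2.12 and 10.5 CPM in females and at 22.0, 27.1 and 13.9 CPM in the compared males, with no overlap and a log2 fold change of 1.70 (SE 0.54, adjusted p = 0.145 in the edgeR test). *Lipa*, the lysosomal lipase that frees the cholesterol later carried by NPC2, was between 14.2 and 16.8 CPM in females and at 27.1, 33.0 and 20.03 CPM in the males, also with no overlap (log2 fold change 0.76, SE 0.19, adjusted p = 0.0881 in the edgeR test). In male replicate 1 *Scd3* was at 12.01 and *Lipa* at 11.3 CPM.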

How the data were processed

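Total RNA of sorted EGFP-positive cells was extracted with an RNeasy micro kit, and libraries were made with the NEBNext Single Cell/Low Input kit and sequenced as paired ends of 150 bases. Per the study's methods, the authors trimmed reads with cutadapt, mapped them to mm10 with STAR and counted them per gene with featureCounts at default settings. The deposited values are unnormalized counts per gene. The annotation is not given in the sources used here, and all 33 genes are named by assembled loci, 4 of which hold further symbols. Exons of 11 of the 33 genes overlap another gene in GENCODE M21, the release used for coordinates, transcript lengths and overlaps.

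Groups came from the sample titles, and replicates were numbered there. Counts were tested with edgeR 4.0.16 (R 4.3.3) with the quasi-likelihood test after TMM scaling of the 7 compared samples, filterByExpr and Benjamini-Hochberg adjustment over all genes tested, at a threshold of 0.05. The standard error is the log2 fold change over the square root of F. Intervals use the total degrees of freedom of that fit, residual plus prior. CPM values used TMM factors over the 8 samples, and a pseudocount of 1 CPM where log2 is stated. Tables were made with Python 3.11.15 and pandas 2.3.3, and figures with matplotlib 3.10.9. The fit was tested on simulated data. The alternatives were DESeq2 1.42.0, library size alone, upper-quartile factors, a minimum of 1 count as the sole filter, a minimum of 10 counts in each sample, inclusion of male replicate 1, a replicate block and leaving out each replicate, and mean CPM was also taken over all 4 males. The 33 genes, the further list of 75 genes and the marker lists were chosen with earlier results of these data known, so no p-value is given for a list. All 33 genes are named, with markers as sums, genes that share a locus, and *Nr5a1*.

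The marker lists not given in the report were summed in the same way. Endothelial markers were between 406 and 528 CPM in females and between 408 and 557 CPM in males, stromal markers between 124 and 174 and between 108 and 117 CPM, and erythroid markers between 184 and 580.1 and between 81.2 and 222 CPM. Markers of macrophages were between 9.11 and 11.5 and between 4.68 and 11.7 CPM, with *Adgre1* and *Aif1* at 0 in some samples. Markers of posterior lobe glia were between 44.1 and 58.3 and between 37.5 and 43.2 CPM, with *Mog* at 0 in all 8 samples.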

Additional observations from a re-analysis of the deposited data

Results flagged for a closer look

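In each sex, the highest or lowest of the 4 samples of a gene was compared with the range of the group (Dixon's criterion at 95%). Of 66 such groups, 7 stood out, and 3.3 would by chance at 1 in 20. *Mvd* was at 8.29 CPM in female replicate 2, against 13.7 to 13.9 CPM in the other females, and in male replicate 2 it was at 9.22 CPM, with the other males at 14.5 to 14.7 CPM. *Scd2* was at 24.6 CPM in female replicate 4, against 0.927 to 2.76 CPM, and *Acaca* at 21.0 CPM in female replicate 1, against 17.6 to 18.0 CPM. Male replicate 1 accounted for the other 3. In it *Hsd17b7* was at 12.3 CPM (4.89 to 5.32 CPM in the other males), *Srebf1* at 79.4 CPM (31.0 to 35.5 CPM) and *Npc2* at 350.4 CPM (582 to 617 CPM).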

How the results depend on the processing

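Of 462 log2 fold changes of the 33 genes under the alternatives, 37 had another sign than the reported value, in 12 genes, and 21 genes kept their sign in all 14 alternatives. None of the 33 genes was called under any edgeR alternative, and DESeq2 called 3. The number of genes called in the whole table, 471, was 2329 with DESeq2, 808 with library size alone, 177 with no filter beyond 1 count and 67 with all 8 samples. Leaving out any 1 sample gave 88 to 171 calls, the fewest without male replicate 3 and the most without female replicate 1. With a replicate block in edgeR it was 0, with 2954 genes at an unadjusted p under 0.05. The labels do not say whether same-numbered samples are paired. Deviations of same-numbered samples correlated at -0.03, -0.0021 and -0.0016 over all genes tested, which cannot exclude a pairing that acts on some genes. Of the other pathway genes, DESeq2 called 11 and library size alone 1. With library size alone the median of all genes moved from -0.03 to -0.24 and that of the 33 genes to -0.21, the difference between males and females in mean log2(CPM + 1) moved from 0.14 to -0.087 for squalene and sterol genes, from -0.11 to -0.35 for regulators, from -0.016 to -0.24 for the early pathway, from 0.039 to -0.20 for transport and storage and from 0.25 to 0.036 for fatty acid genes, and male replicate 1 was below the other 7 samples in 5 genes. The signs that turned with library size alone were those of *Mvd* (-0.20), *Cyp51* (-0.028), *Nsdhl* (-0.20), *Fasn* (-0.18) and *Acaca* (-0.18). With all 8 samples *Hmgcs1* was at 0.036, *Idi1* at 0.0049, *Fdps* at 0.17, *Srebf1* at 0.14 and *Nsdhl* at -0.019. With the replicate block *Hmgcs1* was at 0.025, *Fdft1* at 0.24 and *Stard4* at 0.013, and with no filter beyond 1 count *Idi1* was at 0.00096. Leaving out 1 sample moved *Hmgcs1* between -0.15 and 0.050, *Mvd* -0.11 to 0.20, *Idi1* -0.57 to 0.50, *Fdps* -0.18 to 0.021, *Fdft1* -0.32 to 0.13, *Nsdhl* -0.057 to 0.13, *Dhcr7* -0.22 to 0.22, *Stard4* -0.15 to 0.051, *Fasn* -0.21 to 0.39 and *Acaca* -0.025 to 0.11. The cause of these moves was not tested. With 3 against 4 samples, the 95% intervals given for each gene bound the differences that remained possible, and depth was not tested as a limit.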
